A study of Sus scrofa with 24 samples.

Results

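The genes described here encode factors of pre-mRNA splicing. They were taken as every gene whose probe set carries a single symbol that starts with SRSF, HNRNP, SNRP, SF3A, SF3B, PRPF, U2AF or RBM in the annotation of the Affymetrix Porcine Genome array. The choice used names and no measured values, and it gave 78 of the 6765 named genes. The 78 genes are 11 SRSF, 17 HNRNP, 10 SNRP, 7 SF3A or SF3B, 9 PRPF, 2 U2AF and 22 RBM genes. They are read by 126 probe sets, and 30 of the genes have more than 1. Each gene is represented by its brightest probe set, by mean log2 signal over all arrays.

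Splicing removes introns from pre-mRNA and joins the exons, and it is carried out by the spliceosome. Its small nuclear ribonucleoproteins (snRNPs) each hold a small RNA and a ring of Sm proteins. The U1 particle reads the 5′ splice site, the U2 particle with its SF3A and SF3B subunits binds the branch site, and U2AF marks the 3′ splice site. SR proteins (SRSF genes) bind exons and mostly favour their inclusion, while hnRNP proteins (HNRNP genes) coat nascent RNA and often favour skipping. PRPF genes encode components and regulators of the particles. RBM is a naming class for RNA-binding proteins, and not all of its members act in splicing. In striated muscle, alternative splicing is known to switch isoforms of contractile and calcium handling proteins between fetal and adult life.

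The study profiled messenger RNA in 24 pigs, 1 array per animal. Their mothers were German Landrace gilts that received a high protein [HP] diet in gestation, so every group shares breed and diet, and no control diet is compared here. The groups are 4 stages with 6 animals each, namely 94 days post conception (94 dpc, fetal) and 1, 28 and 188 days after birth (1, 28 and 188 dpn). Offspring of 3 gilts were collected per stage. The labels do not give mother, sex or array batch. Littermates are not independent, so the p-values are too small by an unknown amount.

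The sample labels name liver, whereas the title of the series names muscle. The skeletal muscle markers, of which 17 of 21 were measured, summed to between 309405 and 465234 at 94 dpc, 607863 and 807634 at 1 dpn, 802133 and 1061830 at 28 dpn, and 704732 and 947342 at 188 dpn in scaled signal units. The liver markers, 17 of 18 measured, summed to between 8572 and 63651 at 94 dpc, 3697 and 42905 at 1 dpn, 3438 and 8872 at 28 dpn, and 1500 and 284245 at 188 dpn. The background level was 74.7, and in each stage at most 1 of the 17 liver markers and none of the 17 muscle markers lay under it on all arrays. Muscle markers were thus present on the arrays of every stage, while the summed liver markers differed widely between arrays of a stage. The muscle marker CKM read 26077 to 41113 at 94 dpc and 61679 to 79616 at 28 dpn. The liver marker ALB read 132 to 1006 and 63.6 to 1043 at these stages, 111 to 4477 at 1 dpn, and up to 56933 at 188 dpn. The high CKM and low ALB values go against the labelled tissue, and no tissue is assigned to the samples below.

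Some arrays stood apart within their stage. The control transcript EF1A has probe sets at both of its ends, and its 5′ signal divided by its 3′ signal at 1 dpn was 0.135, 0.105 and 0.0963 in animals 1, 2 and 3, against 0.670 to 0.703 in animals 4, 5 and 6. Other stages had ratios between 0.988 and 1.05 (94 dpc), 0.638 and 0.696 (28 dpn) and 0.512 and 0.656 (188 dpn). For EF1A, every array of 94 dpc thus lay above every later array. Stage and the EF1A ratio go together in each comparison with 94 dpc, also when animals 1, 2 and 3 of 1 dpn are left out. The control transcript GAPDH gave another order, with fetal ratios between 0.780 and 0.870. Its ratio was higher, 0.907, 0.996 and 0.946, in animals 4, 5 and 6 of 1 dpn. Animals 1, 2 and 3 of that stage read 0.424, 0.581 and 0.616, below the fetal arrays. GAPDH ratios reached at most 0.736 among 28 dpn arrays and 0.725 among 188 dpn arrays. Between 94 dpc and animals 4, 5 and 6 of 1 dpn, EF1A and GAPDH thus differed in opposite directions. A low ratio means that probes far from the 3′ end of a transcript read little signal. Animals 1, 2 and 3 of 1 dpn are called the low-ratio arrays. ALB, which encodes albumin and is a liver marker, split the animals of 188 dpn. It read 56933, 45919 and 12421 in animals 1, 2 and 3, against 123, 80.1 and 281 in animals 4, 5 and 6. At 1 dpn ALB also split the animals, with 2880, 4477 and 3484 in animals 1, 3 and 6, against 111, 187 and 136 in animals 2, 4 and 5. No fit left out the 1 dpn animals with high ALB together. Single differences that involve 1 dpn or 188 dpn are also given without the low-ratio arrays or animals 1, 2 and 3 of 188 dpn. This was done where it ended the call or moved the value by over 1.5 times, and for some other genes.

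With the values as deposited, splicing factor genes were lower at the later stage in most of the changes that passed the test. Of the 78 genes, 58 differed across the 4 stages in limma's F test, or 74.4%, against 52.3% of all 23935 tested probe sets. Mean signal was highest at 94 dpc for 46 genes (59.0%, against 38.8% of all tested probe sets). It was highest at 1 dpn for 21 (26.9%, against 24.7%), at 28 dpn for 4 and at 188 dpn for 7. Mean signal was lowest at 188 dpn for 44 genes (56.4%, against 38.2%). It was lowest at 1 dpn for 20 (25.6%, against 25.7%), at 28 dpn for 9 and at 94 dpc for 5. The shares for 1 dpn are thus close to those of all tested probe sets. The 20 genes that did not pass included the bright hnRNP genes HNRNPK and HNRNPA2B1. As these are bulk samples, fewer cells of a type and less RNA per cell cannot be told apart.

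**Figure D1:**
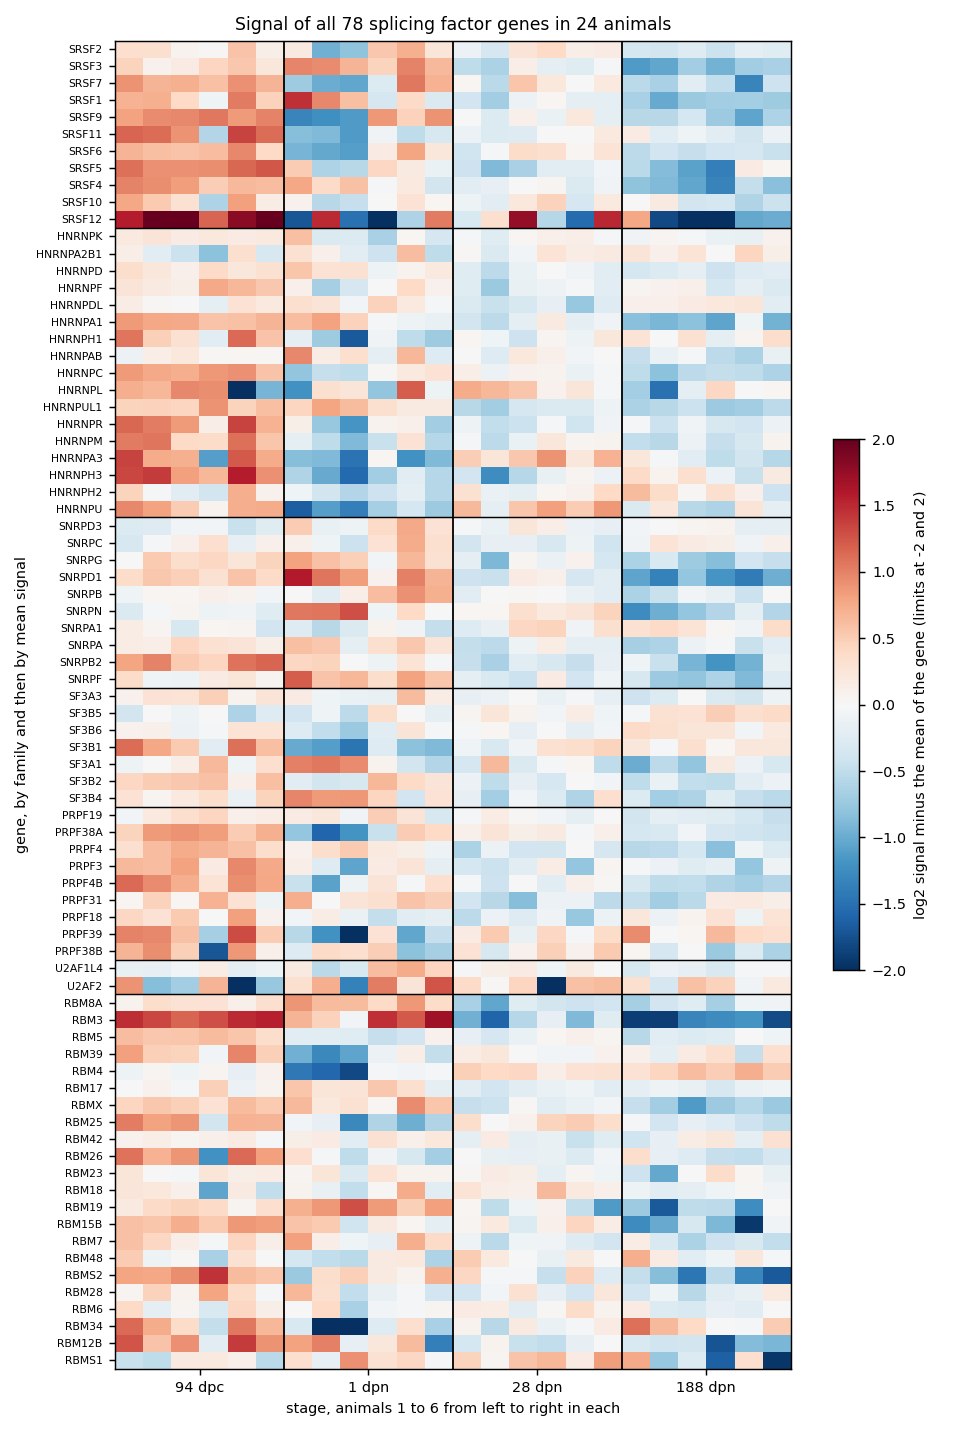
Signal of the 78 splicing factor genes in each of 24 animals, as log2 signal minus the gene's mean over all animals, with genes grouped by family and animals by stage from 94 dpc to 188 dpn. Red is above and blue below the gene's mean, and colours stop at 2 and -2. With the values as deposited, the 94 dpc columns are mostly red and the 188 dpn columns mostly blue, and within 1 dpn the first 3 columns differ from the other 3 for many genes.

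The step from 94 dpc to 1 dpn brought mainly lower signals. No stage was sampled between them, so a change cannot be dated to birth itself. At 1 dpn, 29 genes were lower and 4 higher than at 94 dpc (limma, Benjamini-Hochberg adjusted over all tested probe sets, threshold 0.05). Among all tested probe sets 20.8% were lower and 10.1% higher. The median log2 difference, 1 dpn minus 94 dpc, was -0.33 over the 78 genes and -0.15 over all tested probe sets. Over the brightest probe sets of the 6765 named genes, 20.7% were lower and 17.1% higher, with a median of -0.06. At least 2-fold lower were 16 genes and at least 2-fold higher none. All 6 animals of 1 dpn lay below all 6 of 94 dpc for 8 genes and above them for 2, where all tested probe sets gave 8.66% and 5.05%. With the 3 low-ratio arrays left out, 24 genes were lower and 4 higher, where all tested probe sets gave 17.2% lower and 8.48% higher. Of the 29 lower genes 20 passed again in the same direction, and of the 4 higher genes 1 did.

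From 1 to 28 dpn the changes ran both ways. At 28 dpn, 19 genes were lower and 7 higher than at 1 dpn, where 9.1% of all tested probe sets were lower and 11.6% higher. The median log2 difference was -0.09, against 0.02 for all tested probe sets. For the brightest probe sets of the 6765 named genes, 13.4% were lower and 13.3% higher, with a median of -0.02. At least 2-fold lower were 5 genes, and 5 others were at least 2-fold higher. The 28 dpn animals all lay below those of 1 dpn for 10 genes and above them for 4 (3.81% and 5.59% of all tested probe sets). Leaving out the low-ratio arrays left 17 genes lower and 2 higher, where all tested probe sets gave 5.18% lower and 7.73% higher. Of the 19 lower genes 11 passed again, and of the 7 higher genes 2 did. Both this comparison and the one before use the same 1 dpn animals.

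Growth to 188 dpn changed fewer genes. At 188 dpn, 12 genes were lower than at 28 dpn and 1, HNRNPDL, was higher, with 10.5% and 4.12% of all tested probe sets lower and higher. The share of the 78 genes that was lower, 15.4%, is not far from that background. The median log2 difference was -0.22, against -0.18 for all tested probe sets. Brightest probe sets of the 6765 named genes gave 14.3% lower, 6.16% higher and a median of -0.12. Without overlap between the animals, 12 genes were lower and 1 higher (7.84% and 4.41% of all tested probe sets). When the 3 arrays of 188 dpn with high albumin were left out, 5 genes were lower and 0 higher in the same limma fit, with fewer animals in the comparison, and 15 and 3 at an unadjusted p of at most 0.05.

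Over the whole span, 45 genes were lower at 188 dpn than at 94 dpc and 1, SF3B5, was higher. Of all tested probe sets, 27.4% were lower and 12.5% higher. The median log2 difference, 188 dpn minus 94 dpc, was -0.59, against -0.29 for all tested probe sets. Taking the brightest probe sets of the 6765 named genes, 30.2% were lower and 19.9% higher, with a median of -0.19. At least 2-fold lower were 24 genes. For 39 genes every 188 dpn animal lay below every 94 dpc animal, and for 1 every animal lay above (19.5% and 9.58% of all tested probe sets). Without the high albumin arrays, 41 genes were lower and 1 higher.

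**Figure D2:**
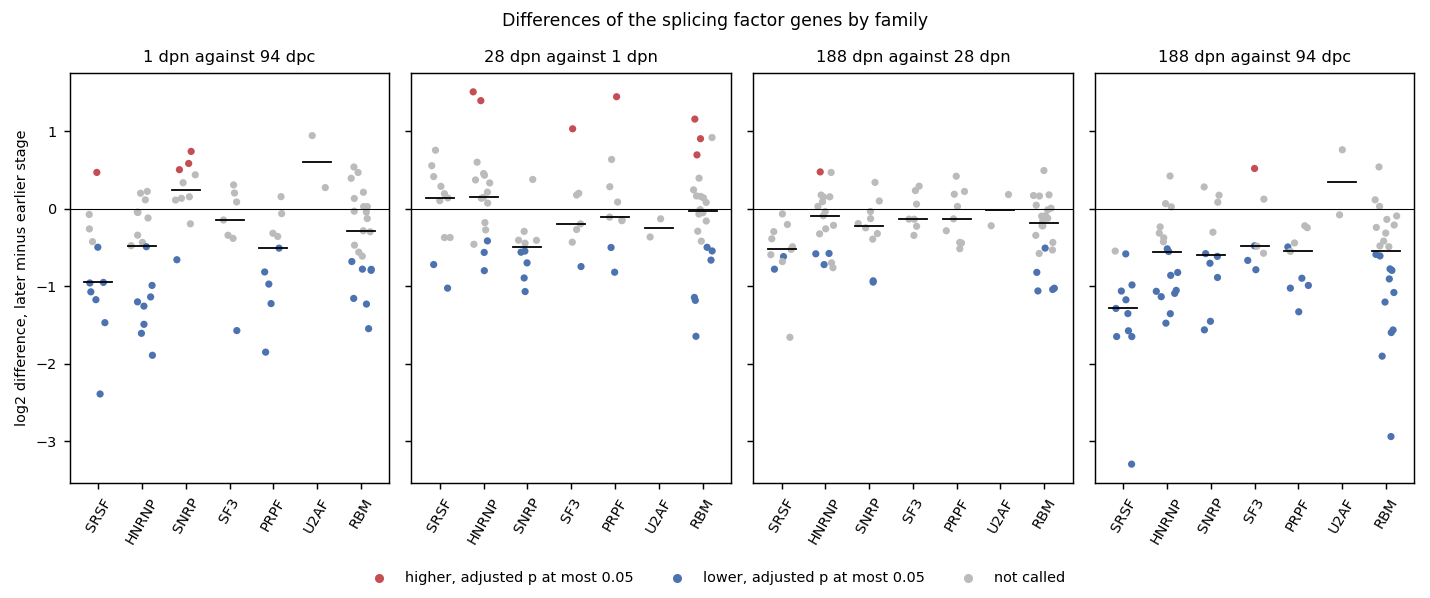
Log2 difference between stages, later minus earlier, for each of the 78 splicing factor genes in 4 comparisons, split by family, with the values as deposited. Red and blue points are genes higher or lower at an adjusted p of at most 0.05, grey points did not pass, and black lines are family medians. In 188 dpn against 94 dpc, 45 points are blue and 1 is red, and all 11 SRSF points lie below 0, while 3 of the 4 red points of 1 dpn against 94 dpc are SNRP genes.

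The split between lower and higher genes depended on how the arrays were brought to a common scale. The values were used as deposited, with each array scaled to the same trimmed mean. Centring every array on its median raised the median difference of all tested probe sets from -0.15 to 0.17 for 1 dpn minus 94 dpc, and from -0.29 to 0.25 for 188 dpn minus 94 dpc. On that scale 18 splicing factor genes were lower and 14 higher at 1 dpn than at 94 dpc, and 21 were lower and 12 higher at 188 dpn than at 94 dpc. As shares of the 78 genes, these are 23.1% and 17.9%, then 26.9% and 15.4%. All tested probe sets, centred in the same way, gave 11.8% lower and 17.2% higher at 1 dpn, and 15.2% lower and 23.7% higher at 188 dpn against 94 dpc. At 188 dpn against 28 dpn, centring gave 4 lower and 6 higher genes, or 5.13% and 7.69%, which is close to the 5.11% and 8.67% of all tested probe sets. Quantile normalization, which placed the median of all tested probe sets between -0.03 and 0.05 in the 4 comparisons, kept most calls on the lower side. It gave 31 lower and 6 higher genes at 1 dpn, 8 lower and 1 higher at 188 dpn against 28 dpn, and 40 lower and 5 higher at 188 dpn against 94 dpc. All tested probe sets then had 14.6% lower and 13.3% higher at 1 dpn, 6.57% and 4.75% at 188 dpn against 28 dpn, and 18.4% and 17.6% at 188 dpn against 94 dpc. The step from 1 to 28 dpn stood at 18 lower and 6 higher with quantile normalization and at 20 lower and 6 higher with centring.

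**Figure D3:**
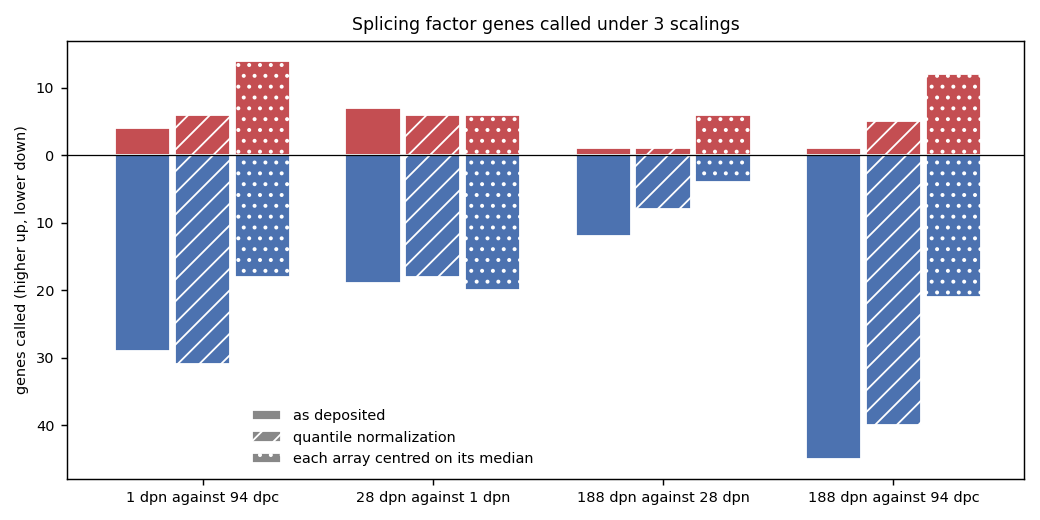
Number of splicing factor genes higher (red, upward) or lower (blue, downward) at an adjusted p of at most 0.05 in 4 comparisons, under 3 scalings of the same arrays. The 188 dpn against 94 dpc bars reach 45, 40 and 21 genes downward with values as deposited, quantile normalized and centred, and 1, 5 and 12 genes upward.

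The SR proteins were mostly lower after birth. At 188 dpn, 10 of the 11 SRSF genes were lower than at 94 dpc and none higher, with a median log2 difference of -1.29, and at an unadjusted p of at most 0.05 all 11 were lower. Quantile normalization gave 10 lower as well and a median of -1.36, and centring gave 7 lower, none higher and a median of -0.75. The gene that did not pass was SRSF2, at -0.55 ± 0.23 (SE; limma adjusted p = 0.0659). Mean signal was highest at 94 dpc for 10 SRSF genes and lowest at 188 dpn for 10, against 38.8% and 38.2% of all tested probe sets.

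SRSF4, a large SR protein, had a lower mean at each later stage. Its signal, as lowest, median and highest of 6 animals, was 1522, 1809 and 2147 at 94 dpc, 839, 1321 and 1835 at 1 dpn, 884, 995 and 1120 at 28 dpn, and 428, 592 and 776 at 188 dpn. The 188 dpn animals lay below all of 28 dpn and all of 94 dpc. The log2 difference of 188 dpn minus 94 dpc was -1.65 ± 0.18 (SE, n = 6 each; limma adjusted p = 9.81e-08), and that of 188 dpn minus 28 dpn was -0.78 ± 0.18 (limma adjusted p = 0.00385). The second did not pass with centring (-0.51, adjusted p = 0.0589).

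SRSF5, first described in rat liver as an insulin-induced gene, had its drop between 94 dpc and 1 dpn. It read 2034, 2198 and 2566 at 94 dpc, 709, 1109 and 1545 at 1 dpn, 585, 872 and 1042 at 28 dpn, and 421, 670 and 1207 at 188 dpn. All fetal animals lay above all later ones. The 1 dpn minus 94 dpc difference was -1.07 ± 0.25 (limma adjusted p = 0.00219), and -0.89 (adjusted p = 0.0253) without the low-ratio arrays. Neither later step passed.

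SRSF3, the smallest SR protein, did not follow the others at 1 dpn. It spanned 2780, 3300 and 3799 at 94 dpc, 3572, 4632 and 5200 at 1 dpn, 1696, 2265 and 2857 at 28 dpn, and 1193, 1488 and 1672 at 188 dpn. Its rise at 1 dpn, 0.47 ± 0.15 (limma adjusted p = 0.0234), overlapped between the groups and did not pass without the low-ratio arrays (0.38, adjusted p = 0.149) or with quantile normalization (0.23, adjusted p = 0.290). The fall at 28 dpn was -1.03 ± 0.15 (limma adjusted p = 6.28e-05), with no overlap between the groups, and it passed without those arrays too (-0.94, adjusted p = 0.00237). A further fall at 188 dpn, -0.62 ± 0.15 (limma adjusted p = 0.00776), again came without overlap, although it did not pass when arrays were centred (-0.35, adjusted p = 0.156) or without the high albumin arrays (-0.52, adjusted p = 0.109).

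SRSF1, the founding member of the family, had its lowest mean at 188 dpn. It read 1583, 2505 and 3457 at 94 dpc, 1329, 2361 and 4618 at 1 dpn, 1029, 1476 and 1710 at 28 dpn, and 831, 1028 and 1073 at 188 dpn. The 188 dpn minus 94 dpc difference was -1.29 ± 0.25 (limma adjusted p = 0.000223). Its wide range at 1 dpn followed the split of the arrays, with 4618, 3266 and 2549 on the low-ratio arrays and 1329, 2173 and 1365 on the other 3. The 1 dpn minus 94 dpc difference was -0.07 (limma adjusted p = 0.858), and -0.62 (adjusted p = 0.0437) without the low-ratio arrays. The fall at 28 dpn was -0.72 ± 0.25 (limma adjusted p = 0.0437). The mean at 28 dpn was 1401, against 3375 on the low-ratio arrays of 1 dpn and 1580 on the other 3. Alternative fits gave values as weak as -0.14 for this fall, and adjusted p-values up to 0.685.

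For 3 SR genes the fall at 1 dpn rested on the low-ratio arrays. SRSF9 at 1 dpn read 660, 706 and 749 on these arrays and 3017, 2271 and 3089 in animals 4, 5 and 6, where the fetal range was 2869 to 3412. Animals 1, 2 and 3 thus differed from the others by -1.97 on the log2 scale. Its difference of -1.17 ± 0.33 at 1 dpn (limma adjusted p = 0.00807) became -0.19 (adjusted p = 0.442) without them. SRSF6 likewise moved from -0.95 to -0.24 (adjusted p = 0.364), and SRSF7 from -0.96 to -0.26 (adjusted p = 0.546). At 188 dpn all 3 were lower than at 94 dpc, a comparison that uses no 1 dpn array except for the shared estimate of spread, and SRSF9 read 1057 on average against 3150. The EF1A ratio differed between these stages too, at 0.512 to 0.656 against 0.988 to 1.05, and its part in these falls was not tested.

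SRSF11 and SRSF12 complete the falls at 1 dpn. SRSF11, an SR-related protein, averaged 789 at 1 dpn and 2187 at 94 dpc, a difference of -1.47 ± 0.25 (limma adjusted p = 0.000117), and the groups overlapped through 1 fetal animal at 814. SRSF12, a little-studied SR-related gene, was near background, with medians of 83.7 at 94 dpc, 10.8 at 1 dpn, 22.2 at 28 dpn and 8.42 at 188 dpn. Because its postnatal means lay under the background level of 74.7, its signal was at least 1.03-fold lower both at 1 dpn and at 188 dpn than at 94 dpc, with limma adjusted p-values of 0.00952 and 0.000403. Its large fitted differences are no measure of fold.

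**Figure D4:**
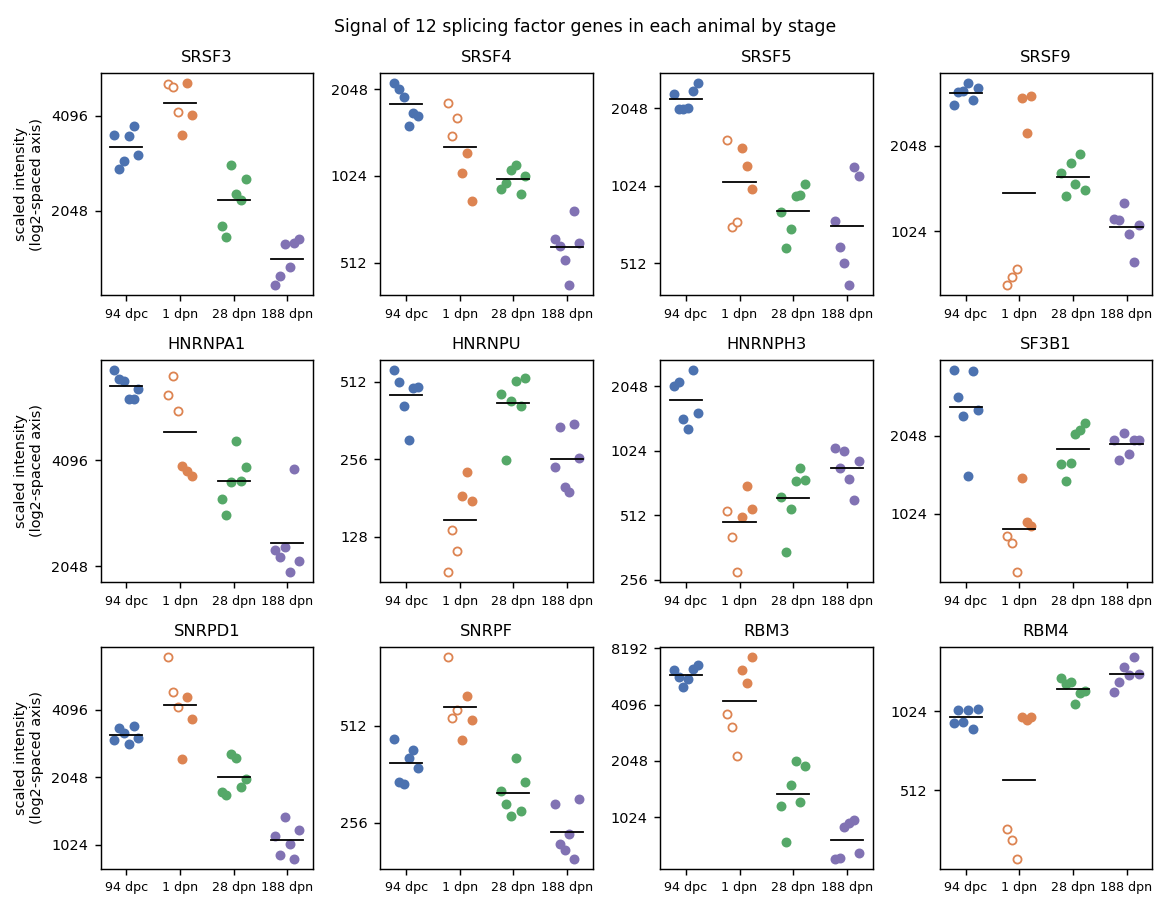
Scaled signal of 12 splicing factor genes in each of 24 animals by stage, on log2-spaced axes, with the geometric mean of each stage as a line. Open circles are the 3 animals of 1 dpn with a low ratio of 5′ to 3′ EF1A signal. SRSF9 and RBM4 show the open circles far below the other 3 animals of 1 dpn, while SRSF4, HNRNPA1, SNRPD1 and RBM3 have their lowest means at 188 dpn, and HNRNPU and SF3B1 have theirs at 1 dpn.

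Between 94 dpc and 1 dpn, 8 of the 17 hnRNP genes fell. At 1 dpn, 8 of 17 were lower than at 94 dpc and none higher (11 and 0 at an unadjusted p of at most 0.05), with a median of -0.48. Without the low-ratio arrays 9 were lower, with quantile normalization 11 were lower and none higher, and with centring 7 were lower and 3 higher. At 188 dpn 10 were lower than at 94 dpc and none higher, against 12 and 1 with quantile normalization and 5 and 3 with centring. Within the family, 12 of 17 had their highest mean at 94 dpc and 8 had their lowest at 1 dpn. These are 70.6% and 47.1%, against 38.8% and 25.7% of all tested probe sets.

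HNRNPH3, which binds G-rich RNA, had the largest fall of the family at 1 dpn. It read 1294, 1803 and 2435 at 94 dpc, 279, 521 and 703 at 1 dpn, 344, 682 and 848 at 28 dpn, and 603, 888 and 1061 at 188 dpn. The fetal animals all lay above every postnatal animal. Its 1 dpn minus 94 dpc difference was -1.89 ± 0.24 (limma adjusted p = 3.59e-06), and -1.61 (adjusted p = 0.000215) without the low-ratio arrays.

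HNRNPU, a nuclear scaffold protein that also binds chromatin, dipped at 1 dpn. It spanned 305, 486 and 569 at 94 dpc, 93.7, 157 and 228 at 1 dpn, 254, 445 and 531 at 28 dpn, and 191, 249 and 351 at 188 dpn. The 1 dpn animals lay below those of both neighbouring stages. The fall at 1 dpn was -1.61 ± 0.23 (limma adjusted p = 1.94e-05) and the difference of 28 dpn minus 1 dpn was 1.51 ± 0.23 (limma adjusted p = 9.22e-05). Both passed without the low-ratio arrays, at -1.21 and 1.11 (adjusted p = 0.00147 and 0.00617). HNRNPA3, a close relative of HNRNPA1, showed the same order of stages, with -1.49 ± 0.31 at 1 dpn and 1.39 ± 0.31 at 28 dpn (limma adjusted p = 0.000906 and 0.00284). Its second step read 1.20 (adjusted p = 0.0513) without those arrays.

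HNRNPA1, a classic antagonist of SR proteins, declined over the whole span. It read 6106, 6717 and 7391 at 94 dpc, 3708, 4803 and 7110 at 1 dpn, 2858, 3569 and 4646 at 28 dpn, and 1976, 2225 and 3864 at 188 dpn. Fetal animals all lay above those of 28 and 188 dpn. The 188 dpn minus 94 dpc difference was -1.48 ± 0.19 (limma adjusted p = 1.10e-06), and it passed with centring too, at -0.94 (adjusted p = 0.000413). At 1 dpn it did not pass with all arrays (-0.44, limma adjusted p = 0.0836), whereas animals 4, 5 and 6 alone gave -0.80 (adjusted p = 0.00396).

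HNRNPC, which binds uridine-rich tracts, was lower at 1 dpn than at 94 dpc and lower at 188 dpn than at 28 dpn. It spanned 3062, 3626 and 3906 at 94 dpc, 1194, 1803 and 2530 at 1 dpn, 1889, 2109 and 2269 at 28 dpn, and 1177, 1446 and 1494 at 188 dpn. The 188 dpn animals lay below all of 28 dpn, by -0.58 ± 0.16 (limma adjusted p = 0.0174), and by -0.53 (adjusted p = 0.132) without the high albumin arrays. The 1 dpn minus 94 dpc difference was -0.99 with all arrays and -0.61 (adjusted p = 0.00181) without the low-ratio ones. HNRNPUL1, a relative of HNRNPU, fell at 28 dpn by 0.80 on the log2 scale (SE 0.14; limma adjusted p = 0.000294), with means of 1444 at 28 dpn and 2514 at 1 dpn. The mean over its probe sets gave 0.37 instead (adjusted p = 0.448), as its other probe set, under background, read 52.6 at 28 dpn and 18.1 at 1 dpn.

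Other hnRNP genes gave calls that depended on the probe set or on the arrays. HNRNPDL, related to the AU-rich element binding protein HNRNPD, was the only one of the 78 genes that rose at 188 dpn over 28 dpn. It averaged 4514 at 188 dpn and 3250 at 28 dpn, a difference of 0.47 ± 0.14 (limma adjusted p = 0.0209), which did not pass with quantile normalization (0.36, adjusted p = 0.122) or without the high albumin arrays (0.46, adjusted p = 0.139). It had fallen at 28 dpn against 1 dpn, by -0.56 ± 0.14 (limma adjusted p = 0.00479), and averaged 4514 at 188 dpn and 4442 at 94 dpc. Its dimmer probe set gave a fall over that span instead, of -0.76 ± 0.20 (limma adjusted p = 0.00388). HNRNPK, a poly-C binding protein and the brightest of the family here, ranged over all stages from 5180 to 12294 and passed in none of the 4 comparisons with all arrays. Animals 4, 5 and 6 alone put it lower at 1 dpn than at 94 dpc, by -0.50 (limma adjusted p = 0.0126). The dimmer probe set of HNRNPK fell over the span to a mean of 1907 at 188 dpn, against 3849 at 94 dpc (limma adjusted p = 7.63e-06), so both genes depend on the probe set. HNRNPL, which binds CA repeats, varied widely within stages, from 374 to 3807 at 94 dpc alone, and did not pass with all arrays.

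The snRNP proteins had another order of stages. Mean signal was highest at 1 dpn for 8 of the 10 SNRP genes and lowest at 188 dpn for 7. All tested probe sets gave 24.7% and 38.2%. At 1 dpn 3 were higher and 1 lower than at 94 dpc, with a median of 0.24. The split was 2 and 1 with quantile normalization and 5 and 0 with centring, and the median stayed above 0 under both. At 28 dpn 5 were lower than at 1 dpn and none higher, with a median of -0.50, and without the low-ratio arrays 6 were lower. Over the whole span 6 were lower and none higher at 188 dpn than at 94 dpc, against 3 and 1 with quantile normalization, 2 and 3 with centring, and 4 and 0 without the high albumin arrays.

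The 6 Sm ring genes measured, SNRPB, SNRPD1, SNRPD3, SNRPF, SNRPG and SNRPN, include the 3 SNRP genes that rose at 1 dpn. Their median log2 difference, 1 dpn minus 94 dpc, was 0.47 over the ring genes, 0.34 without the low-ratio arrays and 0.25 with quantile normalization. With all arrays the 6 differences were above 0, and SNRPN, SNRPF and SNRPD3 passed. Without the low-ratio arrays SNRPG stood at -0.03, and SNRPB and SNRPD3 passed. At 28 dpn all 6 were below their 1 dpn mean and 3 passed, with a median of -0.57. Grouping them was done with their values known, so their common direction is a description.

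SNRPD1, a core Sm protein, had its highest mean at 1 dpn. It read 2883, 3141 and 3480 at 94 dpc, 2467, 4434 and 7032 at 1 dpn, 1706, 1930 and 2608 at 28 dpn, and 886, 1074 and 1361 at 188 dpn. Its 1 dpn animals were spread on both sides of the fetal range, and the rise of 0.44 did not pass (limma adjusted p = 0.0903). Without the low-ratio arrays the rise was 0.15 (adjusted p = 0.651). Both later falls passed, at -1.07 ± 0.19 for 28 dpn minus 1 dpn and -0.93 ± 0.19 for 188 dpn minus 28 dpn (limma adjusted p = 0.000401 and 0.00185). The 188 dpn animals lay below all others.

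SNRPF, another ring subunit, read 339, 392 and 467 at 94 dpc, 461, 558 and 837 at 1 dpn, 269, 308 and 407 at 28 dpn, and 198, 228 and 304 at 188 dpn. Nearly all 1 dpn animals were above the fetal range. The rise at 1 dpn was 0.58 ± 0.16 (limma adjusted p = 0.00759), and 0.46 (adjusted p = 0.068) without the low-ratio arrays. SNRPD3 rose by 0.50 ± 0.15 at 1 dpn (limma adjusted p = 0.0126), and by 0.70 (adjusted p = 0.00158) without those arrays, but quantile normalization gave 0.16 (adjusted p = 0.409). Its mean was 6784 at 1 dpn and 4787 at 94 dpc.

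SNRPN, a Sm protein closely related to SNRPB and expressed from the paternal allele in human and mouse, depended on the arrays. At 1 dpn it read 3407, 3414 and 3990 on the low-ratio arrays and 1540, 2158 and 1646 on the other 3, where the fetal range was 1339 to 1698. Its rise of 0.74 ± 0.22 at 1 dpn (limma adjusted p = 0.0125) was 0.22 (adjusted p = 0.436) without them. At 188 dpn it was lower than at 28 dpn by 0.95 on the log2 scale, with no overlap between the animals (SE 0.22; limma adjusted p = 0.00448), and averaged 984 at 188 dpn and 1898 at 28 dpn. Without the high albumin arrays that difference was -0.68 (adjusted p = 0.127).

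The proteins specific to the U1 particle, SNRPA and SNRPC, and to the U2 particle, SNRPA1 and SNRPB2, differed among themselves. SNRPB2 read 799, 1103 and 1334 at 94 dpc, 554, 659 and 807 at 1 dpn, 378, 455 and 532 at 28 dpn, and 260, 375 and 560 at 188 dpn. Its 28 dpn animals all lay below those of 1 dpn. The 188 dpn minus 94 dpc difference was -1.45 ± 0.19 (limma adjusted p = 2.24e-06). SNRPA fell too over that span, by 0.58 on the log2 scale (SE 0.16; limma adjusted p = 0.00556), and by -0.46 without the high albumin arrays (adjusted p = 0.0776), while SNRPC and SNRPA1 did not pass there.

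Of the SF3A and SF3B genes, SF3B1 alone passed as lower at 1 dpn, and quantile normalization gave 3 lower and 1 higher. SF3B1 contacts the branch site and is a frequent target of mutation in human blood cancers. It read 1438, 2730 and 3666 at 94 dpc, 612, 880 and 1408 at 1 dpn, 1373, 1844 and 2301 at 28 dpn, and 1651, 1968 and 2108 at 188 dpn. All 1 dpn animals lay below the fetal ones and nearly all below those of 28 dpn. The 1 dpn minus 94 dpc difference was -1.57 ± 0.22 (limma adjusted p = 9.55e-06), and -1.30 (adjusted p = 0.000771) without the low-ratio arrays. The difference of 28 dpn minus 1 dpn was 1.03 ± 0.22 (limma adjusted p = 0.00154), and 0.76 (adjusted p = 0.0512) without them.

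SF3B5, a small subunit of the same complex, was the single gene that passed as higher at 188 dpn than at 94 dpc. It spanned 1589, 2147 and 2445 at 94 dpc, 1685, 2221 and 3087 at 1 dpn, 2297, 2538 and 2863 at 28 dpn, and 2383, 3018 and 3418 at 188 dpn. The ranges of 188 dpn and 94 dpc overlapped slightly. Its 188 dpn minus 94 dpc difference was 0.52 ± 0.15 (limma adjusted p = 0.00801), and 1.05 with centring. Over that span 3 of the 7 SF3 genes fell, SF3A3, SF3B2 and SF3B4, and the family median of -0.48 became 0.05 with centring, where 2 were higher and none lower. SF3A3, a subunit of SF3a, moved from -0.48 to 0.055 in that way. SF3B4 did not pass without the high albumin arrays (-0.61, adjusted p = 0.0934).

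Neither U2AF gene passed in any comparison with all arrays. U2AF2, the large subunit that binds the polypyrimidine tract, read from 17.1 to 210 at 94 dpc and from 43.7 to 266 at 1 dpn, which spans the background level. U2AF1L4, a paralog of the small subunit, had medians of 599, 814, 684 and 593 at 94 dpc, 1 dpn, 28 dpn and 188 dpn. The low-ratio arrays of 1 dpn read 745, 452 and 530 and the other 3 read 998, 1090 and 884. Without the low-ratio arrays it was higher at 1 dpn than at 94 dpc, by 0.68 (limma adjusted p = 0.000793), and lower at 28 dpn than at 1 dpn, by -0.54 (adjusted p = 0.00987).

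The PRPF genes were highest in the fetus for 8 of 9 (88.9%, against 38.8% of all tested probe sets). At 1 dpn 5 were lower than at 94 dpc and none higher, with a median of -0.51, and 4 or 3 were lower with quantile normalization or centring. At 188 dpn 5 were lower than at 94 dpc and none higher, with 4 and 2 lower under those scalings. At 188 dpn against 28 dpn none passed in limma, and 2 were lower and 1 higher at an unadjusted p of at most 0.05. PRPF4, part of the U4/U6 particle, spanned 828, 1002 and 1102 at 94 dpc, 613, 734 and 946 at 1 dpn, 424, 517 and 657 at 28 dpn, and 371, 488 and 623 at 188 dpn. Its 188 dpn animals lay below all fetal ones, with a difference of -0.99 ± 0.15 (limma adjusted p = 1.18e-05). PRPF4B, a kinase that acts on splicing proteins, fell over the same span by 1.33 on the log2 scale (SE 0.20; limma adjusted p = 8.01e-06).

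PRPF39, which in yeast belongs to the U1 particle, had the largest PRPF change, with 1 animal of 1 dpn far below the others. At 1 dpn it read 194, 123, 13.2, 346, 139 and 208 in animals 1 to 6, where fetal animals ranged from 180 to 706. The difference was -1.85 ± 0.51 (limma adjusted p = 0.00828), -1.21 without animal 3 and -1.02 (adjusted p = 0.0379) without the low-ratio arrays. It did not pass with the mean of its probe sets (-0.36, adjusted p = 0.621) or with only the 2 stages fitted (adjusted p = 0.0651). The difference of 28 dpn minus 1 dpn, 1.44 ± 0.51 (limma adjusted p = 0.0496), was 0.61 (adjusted p = 0.286) without those arrays. PRPF31, a U4/U6 protein mutated in human retinitis pigmentosa, fell at 28 dpn by 0.82 on the log2 scale (SE 0.20; limma adjusted p = 0.00433), with no overlap between the groups. PRPF38A, which joins the spliceosome before its activation, fell at 1 dpn by 1.22 with all arrays and by 0.56 without the low-ratio ones.

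Among the RBM genes RBM3 changed most. RBM3 is induced by mild cold in mammalian cells and binds mRNA and ribosomes. It read 5073, 6017 and 6655 at 94 dpc, 2187, 4488 and 7355 at 1 dpn, 753, 1377 and 2034 at 28 dpn, and 614, 783 and 991 at 188 dpn. Every animal of 94 dpc and 1 dpn lay above every animal of 28 and 188 dpn. The 188 dpn minus 94 dpc difference was -2.94 ± 0.27 (limma adjusted p = 9.76e-09), or 7.67-fold lower. Its fall at 28 dpn was -1.65 ± 0.27 (limma adjusted p = 0.000159). The low-ratio arrays of 1 dpn read 3655, 3118 and 2187 and the other 3 read 6256, 5320 and 7355, and without the first 3 the fall at 28 dpn was -2.20 (adjusted p = 2.22e-05).

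RBM4, which opposes PTB in the choice of muscle exons in cultured cells, had its higher levels late. It spanned 879, 981 and 1046 at 94 dpc, 282, 659 and 975 at 1 dpn, 1089, 1263 and 1370 at 28 dpn, and 1214, 1407 and 1644 at 188 dpn. All animals of 28 and 188 dpn lay above all of 94 dpc, although the 188 dpn minus 94 dpc difference of 0.54 ± 0.26 did not pass with all arrays (limma adjusted p = 0.111) and did without the low-ratio arrays (adjusted p = 0.000288). Its 1 dpn range was split, with 366, 332 and 282 on the low-ratio arrays and 972, 952 and 975 on the other 3. The fall at 1 dpn, -0.80 ± 0.26 (limma adjusted p = 0.024), became -0.01 (adjusted p = 0.972) without the first 3. The difference of 28 dpn minus 1 dpn was 1.16 ± 0.26 (limma adjusted p = 0.00299) with all arrays and 0.37 (adjusted p = 0.0641) without them.

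RBM25 and RBM39, SR-related regulators of exon choice, were low at 1 dpn. RBM25 read 601, 1302 and 1575 at 94 dpc, 317, 511 and 744 at 1 dpn, 768, 987 and 1100 at 28 dpn, and 544, 622 and 764 at 188 dpn. Its 1 dpn animals lay below all of 28 dpn. The fall at 1 dpn was -1.23 ± 0.22 (limma adjusted p = 0.000196) and the difference of 28 dpn minus 1 dpn 0.90 ± 0.22 (limma adjusted p = 0.00528), and both passed without the low-ratio arrays. RBM39 averaged 773 at 1 dpn and 1724 at 94 dpc, a fall of 1.16 on the log2 scale (SE 0.22; limma adjusted p = 0.000402), and without the low-ratio arrays the difference was -0.68 (adjusted p = 0.0247). RBM5, a regulator of apoptosis gene splicing in human cells, fell at 1 dpn by 0.78 with no overlap between the animals (SE 0.13; limma adjusted p = 7.22e-05). RBM34 averaged 100 at 1 dpn and 293 at 94 dpc, a difference of -1.55 ± 0.41 (limma adjusted p = 0.00592). It did not pass without the low-ratio arrays (-0.77, adjusted p = 0.0847).

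RBM8A, RBMX and RBM19 fell after birth. RBM8A, a core protein of the exon junction complex that splicing leaves on mRNA, averaged 1640 at 28 dpn and 3626 at 1 dpn, a difference of -1.15 ± 0.16 (limma adjusted p = 2.22e-05). Its other probe set rose in the same comparison, by 0.59 ± 0.17, so the direction for this gene depends on the probe set. RBMX, an hnRNP-like protein encoded on the X chromosome, spanned 1018, 1177 and 1294 at 94 dpc, 856, 1122 and 1598 at 1 dpn, 603, 735 and 847 at 28 dpn, and 380, 506 and 602 at 188 dpn. It fell at 28 dpn and at 188 dpn without overlap between consecutive stages, and the second fall did not pass without the high albumin arrays (-0.46, adjusted p = 0.151). RBM19, which is nucleolar and acts on ribosomal RNA, averaged 278 at 28 dpn and 632 at 1 dpn, a difference of -1.18 ± 0.24 (limma adjusted p = 0.00121). The mean of its probe sets gave -0.39 (adjusted p = 0.318).

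Other RBM genes had their fall late. RBM15B, a paralog of a subunit of the m6A methylation machinery, averaged 178 at 188 dpn and 363 at 28 dpn, a difference of -1.03 ± 0.24 (limma adjusted p = 0.00525). RBMS2 and RBMS1, which bind single strands and are not known as spliceosome factors, were lower at 188 dpn than at 28 dpn, with differences of -1.06 ± 0.25 and -1.04 ± 0.35 (limma adjusted p = 0.00578 and 0.0472). RBMS1 at a mean of 89.2 at 188 dpn was close to background and did not pass with quantile normalization (-0.81, adjusted p = 0.155). Over the whole span 11 of 22 RBM genes were lower and none higher at 188 dpn (13 and 0 at an unadjusted p of at most 0.05), against 8 and 2 with quantile normalization and 5 and 4 with centring. Over the same span RBM12B averaged 94.2 at 188 dpn and 279 at 94 dpc, a difference of -1.56 ± 0.34 (limma adjusted p = 0.000731). Alternative fits gave values as weak as -0.58 for it, and adjusted p-values up to 0.360. RBM20, RBM24 and RBM38, known for muscle splicing, were not measured by a probe set that the name rule takes.

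Genes with several probe sets gave a further reading. The 48 probe sets that were not the brightest of their gene included 24 lower and 1 higher at 1 dpn than at 94 dpc, and 16 and 1 without the low-ratio arrays. At 188 dpn against 94 dpc 21 were lower and 3 higher, and 13 and 3 without the high albumin arrays. At 28 dpn against 1 dpn, however, 1 was lower and 14 were higher, whereas the brightest probe sets of the 78 genes gave 19 lower and 7 higher. Without the low-ratio arrays 1 of the 48 was lower and 6 were higher. As shares, 2.08% of the 48 were lower and 29.2% higher, where all tested probe sets gave 9.1% and 11.6%. None of the 10 genes called there by their brightest probe set, among the 30 with several, had another called in the same direction. SRSF6, an SR protein, had 5 other probe sets, all lower at 1 dpn than at 94 dpc, and 1 of these passed without the low-ratio arrays. Opposite calls within a gene were found for RBM8A and for SNRPG, whose dimmer probe set was 1.20 higher at 188 dpn than at 94 dpc while its brightest was 0.89 lower on the log2 scale.

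Splicing genes outside the name rule were listed for comparison. Of 52 measured spliceosome components (of 86 listed), 11 were lower and 4 higher at 1 dpn than at 94 dpc, 8 and 7 at 28 dpn against 1 dpn, 1 and 2 at 188 dpn against 28 dpn, and 20 and 4 at 188 dpn against 94 dpc. Of 40 measured splicing regulators (of 79 listed), the counts were 13 lower and 6 higher, 8 and 7, 5 and 3, and 18 and 4 in the same order. The shares lower at 1 dpn were 21.2% of the components and 32.5% of the regulators, against 20.8% of all tested probe sets. At 28 dpn against 1 dpn the shares lower were 15.4% and 20%, against 9.1%. At 188 dpn against 28 dpn they were 1.92% and 12.5%, against 10.5%. At 188 dpn against 94 dpc they were 38.5% and 45%, against 27.4%. Without the high albumin arrays that comparison gave 13 lower and 2 higher components and 12 lower and 4 higher regulators. Centring gave 6 lower and 15 higher components, or 11.5% and 28.8%, and 9 lower and 10 higher regulators, or 22.5% and 25%, where all tested probe sets gave 15.2% and 23.7%.

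Some of these genes differed between stages in the same direction as some members of the families above. Whether they vary together was not tested. LSM7 and LSM6, subunits of the Sm-like ring of the U6 particle, rose at 1 dpn by 0.74 ± 0.18 and 0.63 ± 0.18, and fell at 28 dpn by 1.63 and 1.04 on the log2 scale. Without the low-ratio arrays the rise of LSM7 was 0.46 (adjusted p = 0.0337), and LSM6 did not pass (0.29, adjusted p = 0.274). MAGOH and MAGOHB, partners of RBM8A in the exon junction complex, fell at 28 dpn, with differences of -1.49 ± 0.18 and -1.44 ± 0.28 (limma adjusted p = 5.99e-06 and 0.000961). Only the brightest probe set of RBM8A fell in that comparison, and its other probe set rose. CIRBP, a cold-inducible relative of RBM3, averaged 349 at 188 dpn and 1124 at 94 dpc, a difference of -1.69 ± 0.18 (limma adjusted p = 8.39e-08). CLK1, a kinase of SR proteins, and LUC7L3, a U1-associated protein, were lower at 1 dpn than at 94 dpc, by -1.62 ± 0.25 and -2.46 ± 0.33, and higher at 28 dpn than at 1 dpn, by 1.26 ± 0.25 and 1.98 ± 0.33.

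Further regulators of exon choice showed large differences over the span. RBFOX2, which binds GCAUG motifs, averaged 927 at 188 dpn and 5845 at 94 dpc, a difference of -2.66 ± 0.15 (limma adjusted p = 9.16e-12). PTBP1, a repressor of many tissue-specific exons, averaged 729 at 188 dpn and 2705 at 94 dpc, or -1.89 ± 0.17 (limma adjusted p = 8.18e-09). MBNL3, a muscleblind protein known from muscle precursor cells in mouse, averaged 106 at 188 dpn and 678 at 94 dpc, or -2.68 ± 0.56 (limma adjusted p = 0.000437), and -4.14 (adjusted p = 3.98e-08) without the high albumin arrays. PCBP2 and YBX3, RNA-binding proteins with roles beyond splicing, were higher at 188 dpn than at 94 dpc, by 1.33 ± 0.17 and 1.31 ± 0.14.

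Markers of dividing cells were mostly lower at 1 and 188 dpn than in the fetus. Of 24 listed, 16 were measured, and they summed to between 15706 and 19773 at 94 dpc, 2651 and 5914 at 1 dpn, 6585 and 9491 at 28 dpn, and 2547 and 3672 at 188 dpn. At 1 dpn 14 were lower than at 94 dpc and none higher, and at 28 dpn 7 were higher than at 1 dpn and none lower. At 188 dpn 10 were lower than at 28 dpn, and 15 were lower and 1 higher than at 94 dpc. In all arrays of 188 dpn 5 of the 16 were under the background level.

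Markers of other cell types also differed between stages. Of 16 endothelial, fibroblast and fat markers 13 were measured, and they summed to between 43549 and 53960 at 94 dpc, 26687 and 74547 at 1 dpn, 23338 and 38497 at 28 dpn, and 16461 and 24228 at 188 dpn. At 1 dpn 6 were lower and 1 higher than at 94 dpc, at 28 dpn 1 was lower and 6 higher than at 1 dpn, and at 188 dpn 6 were lower than at 28 dpn. At 188 dpn against 94 dpc 8 were lower and 1 higher, with a median log2 difference of -1.09. Of the 3 measured muscle precursor markers (of 7 listed), 1 was lower at 1 dpn and 2 at 188 dpn than at 94 dpc, and their sum lay between 288 and 521 at 188 dpn and between 2054 and 3416 at 94 dpc. Of the 14 measured blood and immune cell markers (of 20 listed), 3 were lower at 1 dpn and 3 at 188 dpn than at 94 dpc, with sums between 2667 and 6694 at 1 dpn, 2432 and 4765 at 188 dpn, and 4690 and 26980 at 94 dpc. The part of these lists and of the dividing cell markers in the differences of the splicing factor genes was not tested.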

How the data were processed

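Per the labels, total RNA was isolated with TRI Reagent, treated with DNaseI and cleaned with RNeasy, and biotinylated cRNA from 0.5 µg was hybridised to Affymetrix Porcine Genome arrays. The authors deposited a linear intensity for each probe set on each array, and GCOS 1.1.1 is named in the submitters' processing notes. Trimmed by 2% at both ends, array means were 498 to 499, so the values had been scaled, with settings not given in the sources used here. Array number limits the precision. Within stages, correlations between arrays lay between 0.837 and 0.922, and no 2 arrays were identical.

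Each intensity was converted to log2 with nothing added. Leaving out 183 of 24118 probe sets as controls kept 23935, with no filter on low values. Tables were read in R 4.3.3 by data.table, version 1.17.8. A limma 3.58.1 model (lmFit, eBayes, two-sided) had a mean for each of the 4 stages and left 20 residual degrees of freedom over 24 arrays, with p-values adjusted by Benjamini-Hochberg over all tested probe sets at 0.05. The fit was tested on simulated data. Symbols came from the platform annotation: 10069 probe sets had 1 symbol, 198 several and 13668 none. Background, 74.7, was the 95th percentile of 17 Tag control probe sets, and 39.2% of the tested ones lay below it on average. Probe sets have no stated genome build, so no coordinates are given, and no sequences were used. Plots used matplotlib 3.10.9, numpy 2.4.6 and pandas 2.3.3 under Python 3.11.15.

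The genes, lists, comparisons and tests were chosen with earlier results of these data known. Genes were named by rule: per comparison up to 8 of the largest rises and falls that passed, per family the brightest and the one with the largest F, and SNRPN, RBM3, RBM20, RBM24, RBM38, SRSF1, SRSF3, SRSF5, HNRNPA1, HNRNPL and HNRNPU. For the lists outside the name rule it was up to 5 of each. Further genes, among them SRSF6, SRSF7, HNRNPC, HNRNPA2B1, PRPF4B, PRPF38A, RBM5, RBMX, SNRPA, SNRPB2, SNRPC, SNRPA1 and SNRPG, were named after their values were seen. Alternatives were quantile normalization, centring on the array median, 16 or 64 added before log2, leaving out the dimmest 30% of probe sets, trend and robust eBayes, only the 2 stages compared, array weights, the mean of a gene's probe sets and each animal left out. Fits without the 3 arrays of 1 dpn with a low 5′ to 3′ ratio, or the 3 of 188 dpn with high albumin, were added after the data were seen.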

Additional observations from a re-analysis of the deposited data

Results flagged for a closer look

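For the 39 genes named by rule, 156 groups of 6 animals were searched for a single animal far from the other 5. The gap to the nearest animal was divided by the range of the group, and compared with Dixon's 95% critical value for 6 values. Chance flags about 1 in 20 groups, and 10 groups passed. Of these, 5 were animal 4 of 94 dpc. HNRNPA3 read 406 there and 1431 to 2221 in the others (0.741), SRSF11 read 814 and 2271 to 3104 (0.767), and RBM25 read 601 and 1236 to 1575 (0.748). The same animal was high for HNRNPUL1, at 3481 with 2516 to 2839 in the others (0.628), and for U2AF1L4, at 729 with 577 to 629 (0.630). The remaining animals were spread over the other stages. PRPF39 read 13.2 in animal 3 of 1 dpn and 123 to 346 in the others (0.684). HNRNPU read 254 in animal 2 of 28 dpn and 414 to 531 in the others (0.664). At 188 dpn, HNRNPA1 read 3864 in animal 5 and 1976 to 2323 in the others (0.759), HNRNPDL read 3629 in animal 6 and 4498 to 5000 (0.670), and SRSF1 read 831 in animal 2 and 1001 to 1073 (0.726).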

How the results depend on the processing

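Of 61 named differences that passed, 31 passed in the same direction under all alternatives, 30 did not under some, and 4 of these changed sign. HNRNPUL1 (28 dpn minus 1 dpn) was 0.37 and RBM8A (188 dpn minus 94 dpc) 0.27 with the mean of a gene's probe sets, and PRPF19 and SF3A3 (188 dpn minus 94 dpc) were 0.040 and 0.055 with centring. The count of genes that differed across stages, 58, was 55 to 61 when single animals were left out. Genes lower at 1 dpn than at 94 dpc, 29, numbered 18 with centring, 19 with only the 2 stages fitted and 26 to 30 without single animals; genes higher, 4, numbered 14, 2 and 3 to 6. Genes lower at 28 dpn than at 1 dpn, 19, numbered 10 with only the 2 stages fitted, 11 with the mean of probe sets and 15 to 20 without single animals. The 7 higher ones numbered 2 without the low-ratio arrays of 1 dpn and 5 to 9 without single animals. Genes lower at 188 dpn than at 28 dpn, 12, numbered 4 with centring, 19 with only the 2 stages fitted, 5 without the high albumin arrays and 7 to 13 without single animals, with 7 when animal 3, 5 or 6 of 28 dpn or animal 3 of 188 dpn was left out. The 1 higher gene became 6 with centring, 2 with array weights, 0 without the high albumin arrays and 0 to 1 without single animals (0 without animal 5 of 28 dpn). Genes lower at 188 dpn than at 94 dpc, 45, numbered 21 with centring and 41 to 47 without single animals. The 1 higher gene became 12 with centring, 5 with quantile normalization, 3 with array weights, and 2 with only the 2 stages fitted, with the mean of probe sets and without the low-ratio arrays of 1 dpn, and 1 to 2 without single animals (2 without animal 5 of 94 dpc). Apart from the smaller number of animals where arrays were left out or 2 stages fitted, the cause was not tested. No paired analysis was possible because the sample titles carry running numbers of which no 2 stages share any. The dimmest signals limit what can be read of SRSF12 and U2AF2.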
